A study of Mus musculus with 24 samples.

Results

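The 35 genes described here make and regulate cholesterol and fatty acids, and most are known targets of the sterol regulatory element binding proteins (SREBPs). They were listed by name for these known roles, but with earlier results of these data known. Counts of members set beside shares of all genes therefore describe this list and are no independent test. All 35 had a row among the 43430 gene IDs of the count table. All 35 also passed the filter on low counts, among 13467 genes tested with 24 libraries and 13629 tested with 22. By role, 8 enzymes belong to the mevalonate segment, 12 lead from squalene to cholesterol, 7 are regulators or handle sterols, and 8 make or desaturate fatty acids. The first 20 are referred to as sterol enzymes.

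The data were polyadenylated-RNA sequencing counts of alveolar macrophages, the macrophages of the air spaces, sorted by flow cytometry from C57BL/6J mice. Young animals were 8 to 12 weeks old and old animals more than 18 months old per the sample labels, and each of 6 groups held 4 libraries. They were young and old naive cells of the Siglec F-high sort, young and old cells of the Siglec F-high sort taken 28 days after asbestos, and young and old cells of the Siglec F-low sort from asbestos-treated animals. No naive Siglec F-low group was analysed here. Siglec F is a surface lectin of alveolar macrophages, and while the series text distinguishes tissue-resident from monocyte-derived cells, the labels name the sorts by Siglec F alone. No genetic modification was named for any group.

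SREBPs are transcription factors held in the endoplasmic reticulum membrane by the escort protein SCAP and the INSIG proteins while sterols are plentiful. When sterols fall, the complex moves to the Golgi, proteases release the factor, and it enters the nucleus and raises transcription of the enzymes of sterol synthesis, while another family member serves mainly fatty acid synthesis. Alveolar macrophages take up and clear the lipids of surfactant, so that synthesis, uptake and export of sterols all bear on their sterol content, and the liver X receptors (LXRs), which sense oxysterols, drive export.

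The stretches printed next lie upstream of the starts of 6 members on which the results turn: 5 sterol genes that were called in the comparisons, and Elovl6, which moved the other way. They come from RefSeq on GRCm38.p6, written 5′ to 3′ on the strand of the gene, and end before the transcript starts of RefSeq and of GENCODE M21. Capitals mark matches of the 4 motifs searched on both strands in the 250 bases before each start: a sterol regulatory element TCACNCCAC, a CCAAT box, a GC box GGGCGG and an E-box CACGTG. The stretches are chr13:119690104-119690342, plus strand for Hmgcs1, chr1:169969264-169969442, minus strand for Hsd17b7, chr9:42264310-42264550, minus strand for Sc5d, chr10:76531429-76531557, plus strand for Lss, chr5:28071173-28071326, plus strand for Insig1 and chr3:129532255-129532354, plus strand for Elovl6.
Hmgcs1: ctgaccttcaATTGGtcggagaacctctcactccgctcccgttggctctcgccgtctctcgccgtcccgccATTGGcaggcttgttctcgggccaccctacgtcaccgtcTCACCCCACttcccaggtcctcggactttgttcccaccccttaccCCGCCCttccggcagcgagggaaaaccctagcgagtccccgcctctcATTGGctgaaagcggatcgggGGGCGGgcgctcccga
Hsd17b7: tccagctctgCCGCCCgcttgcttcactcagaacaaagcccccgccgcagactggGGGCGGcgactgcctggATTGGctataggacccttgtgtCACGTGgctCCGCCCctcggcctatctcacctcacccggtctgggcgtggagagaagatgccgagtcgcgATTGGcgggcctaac
Sc5d: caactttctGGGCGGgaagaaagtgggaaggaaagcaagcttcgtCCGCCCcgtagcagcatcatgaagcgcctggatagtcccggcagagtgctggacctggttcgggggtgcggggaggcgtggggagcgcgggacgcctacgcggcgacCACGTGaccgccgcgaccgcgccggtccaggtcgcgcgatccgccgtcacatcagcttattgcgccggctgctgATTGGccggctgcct
Lss: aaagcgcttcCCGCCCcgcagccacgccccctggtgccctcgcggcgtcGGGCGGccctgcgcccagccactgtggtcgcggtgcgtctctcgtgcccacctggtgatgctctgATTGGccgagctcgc
Insig1: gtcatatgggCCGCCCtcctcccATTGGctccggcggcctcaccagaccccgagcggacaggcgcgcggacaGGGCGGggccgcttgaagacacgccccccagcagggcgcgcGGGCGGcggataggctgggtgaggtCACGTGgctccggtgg
Elovl6: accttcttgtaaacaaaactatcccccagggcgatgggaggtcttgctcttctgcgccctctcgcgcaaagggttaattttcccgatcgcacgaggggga

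Hmgcs1 was the 1 member of 28 with a promoter window whose window held the sterol element as searched, at 137 to 129 bases before the RefSeq start, against 1.22% of 27025 genes. A CCAAT box stood in the windows of 22 of the 28 members and of 37.5% of all genes, and a GC box in those of 23 members and of 35.4% of all genes. The E-box was found for 5 members, among them Hsd17b7, Sc5d and Insig1, and for 6.86% of all genes. The stretch of Elovl6 held none of the 4 motifs. These matches describe letters within the windows and are no evidence of binding, and genes could count through any of several windows. Fdps, Fdft1, Sqle, Stard4, Scd1, Scd2 and Fads1 had no window in the table used.

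**Figure D1:**
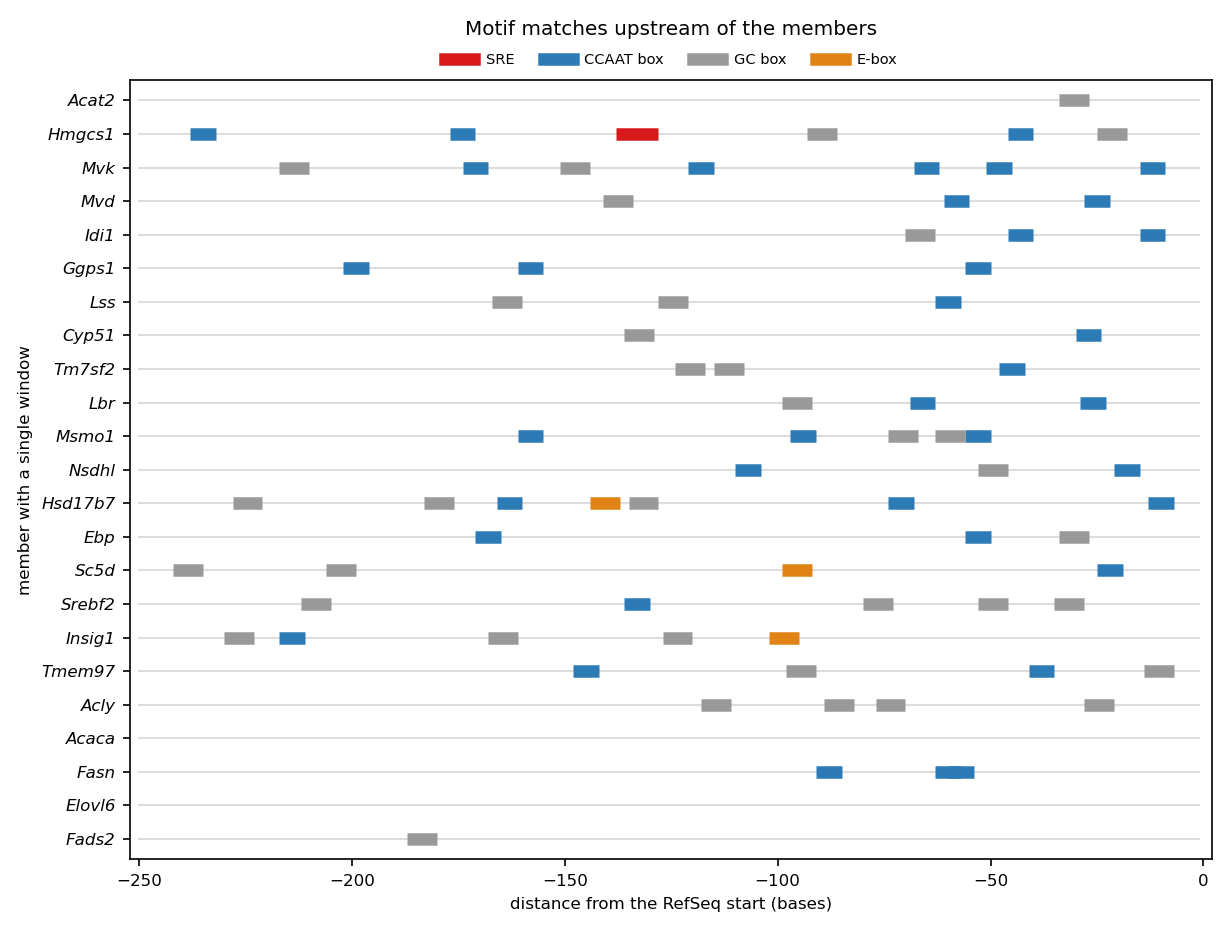
Matches of the 4 motifs in the 250 bases before the RefSeq start, for the 23 members with a single window; the horizontal axis is the distance from the start in bases, each row is a gene, and each mark is a match of the motif given in the key. CCAAT and GC boxes recur across the rows, while the sterol element as searched is marked for Hmgcs1 alone.

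Of the 24 libraries, 22 held 13423080 to 18124526 counts on 17069 to 18820 genes. The others stood apart: replicate 3 of the young asbestos Siglec F-high group had 12528 genes with a count among 11889517 counts. Replicate 3 of the old asbestos Siglec F-high group had 3894699 counts, of which the single gene Gm42418 took 35.6%, against 0.136 to 0.357% in the 22. Results on members are therefore given with all 24 libraries, as the main result, and with the 22, and counts of marker genes with the 22. Values are CPM, read counts relative to library size, scaled with TMM factors, listed in the order of replicates 1 to 4, so that the third value of either asbestos Siglec F-high group belongs to a library that stands apart. The labels do not say that replicates were separate animals. The p-values therefore judge group differences against the spread between these libraries, which may be technical in part. That spread was estimated over all 6 groups of a fit. In such bulk samples, fewer cells that express a gene and less of its RNA per cell cannot be told apart.

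Transcripts of Siglecf, the gene of the sorting marker, stood at 489.2 to 614 CPM in the naive libraries, at 312 to 476 in the Siglec F-high sort after asbestos, and at 236 to 294 in the young and 148 to 221 in the old Siglec F-low sort. The 10 listed markers of monocyte-derived macrophages summed to 418 to 568 CPM in young and 635 to 1099 in old naive cells, to 784 to 1109 and 1372 to 1525 in the young and old Siglec F-high sort after asbestos, and to 3546 to 5857 and 4554 to 5002 in the Siglec F-low sort (22 libraries). Spp1, at 269 to 4763 CPM, Mmp12, at 3.71 to 1692, and Apoe, at 44.4 to 376, weighed most in this sum. The highest of the other markers was C1qb, at up to 82 CPM, and Ccr2 ranged from 8.31 to 23.2. The 10 markers of resident alveolar macrophages summed to 13988 to 19161 CPM in young naive and to 50622 to 64710.0 in old Siglec F-low cells, most of it from Chil3. Without Chil3 the other 9 summed to 3302 to 4749.7 CPM over the 22 libraries, with ranges that overlapped between all 6 groups, and Siglecf among them was lowest in old Siglec F-low cells. The 10 proliferation genes summed to 337 to 395 CPM in young and 237 to 255 in old naive cells, to 426 to 515 and 285 to 306 in the Siglec F-high sort after asbestos, and to 443 to 517 and 237 to 325 in the Siglec F-low sort. Over the same libraries the 10 alveolar type 2 cell markers summed to 54.5 to 119.5 CPM, the 6 B cell markers to 10.6 to 50.5, the 5 T cell markers to 4.38 to 19.6, the 5 neutrophil markers to 33.9 to 67.1, the 5 fibroblast markers to 0.117 to 11.7 and the 5 erythroid markers to 0 to 6.05. Col1a2, Col3a1, Dcn, Pdgfra and all 5 erythroid genes were at 0 in at least 1 of these libraries, as were Sftpd, Lamp3 and S100a9.

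Sterol enzyme transcripts, taken as a sum, were lowest in naive cells, intermediate in the Siglec F-high sort after asbestos and highest in the Siglec F-low sort. Summed over the 20 sterol enzymes, the level was 599, 698, 629 and 649 CPM in the young naive libraries and 685, 671, 601 and 792 in the old naive ones. After asbestos it was 812, 691, 1142 and 712 CPM in the young and 897, 883, 835 and 946 in the old Siglec F-high sort. In the Siglec F-low sort it was 1135, 1094, 1029.6 and 993 CPM in young and 1259.6, 1331, 1292 and 1218 in old cells. Without the libraries that stand apart, the naive groups overlapped each other, the young Siglec F-high sort overlapped both naive groups, and the old Siglec F-high sort and both Siglec F-low groups occupied ranges of their own. The means ± SD over these libraries were 644 ± 41.6 and 687 ± 79 CPM in young and old naive cells (n = 4), 738 ± 64.7 and 908 ± 33.1 in the Siglec F-high sort after asbestos (n = 3), and 1063 ± 63.7 and 1275 ± 48 in the Siglec F-low sort (n = 4). Young asbestos Siglec F-high replicate 3, at 1142 CPM, lay above all other libraries of its group and above 1135, the highest young Siglec F-low value.

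The sum over the 8 fatty acid genes did not separate the groups in this way. It spanned 608 to 697 CPM in young naive and 604 to 775 in old naive cells. After asbestos it was 671 to 746 and 686 to 748 in the young and old Siglec F-high sort. In the young and old Siglec F-low sort it was 649 to 744 and 678 to 774. All of these ranges overlapped (22 libraries), and Acly alone made up 319 to 402 CPM of the sum. Gene by gene, the group means of 4 of the 8 rose in the order of the sterol enzymes at both ages (22 libraries). These were Fasn, Scd2, Fads1 and Fads2. The 7 regulators and sterol handlers had means ± SD of 547 ± 29.2 CPM in young naive (n = 4) and 708 ± 32.5 in old Siglec F-low cells (n = 4). With 22 libraries the highest group mean fell in old Siglec F-low cells for 26 of the 35 members, against 20.5% of all genes tested. Of these members, 17 were sterol enzymes, 4 regulators and 5 fatty acid genes. With all 24 libraries this did not hold for at least Pmvk and Tmem97, whose mean was then highest in young asbestos Siglec F-high cells. The count with 24 libraries is not given here.

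**Figure D2:**
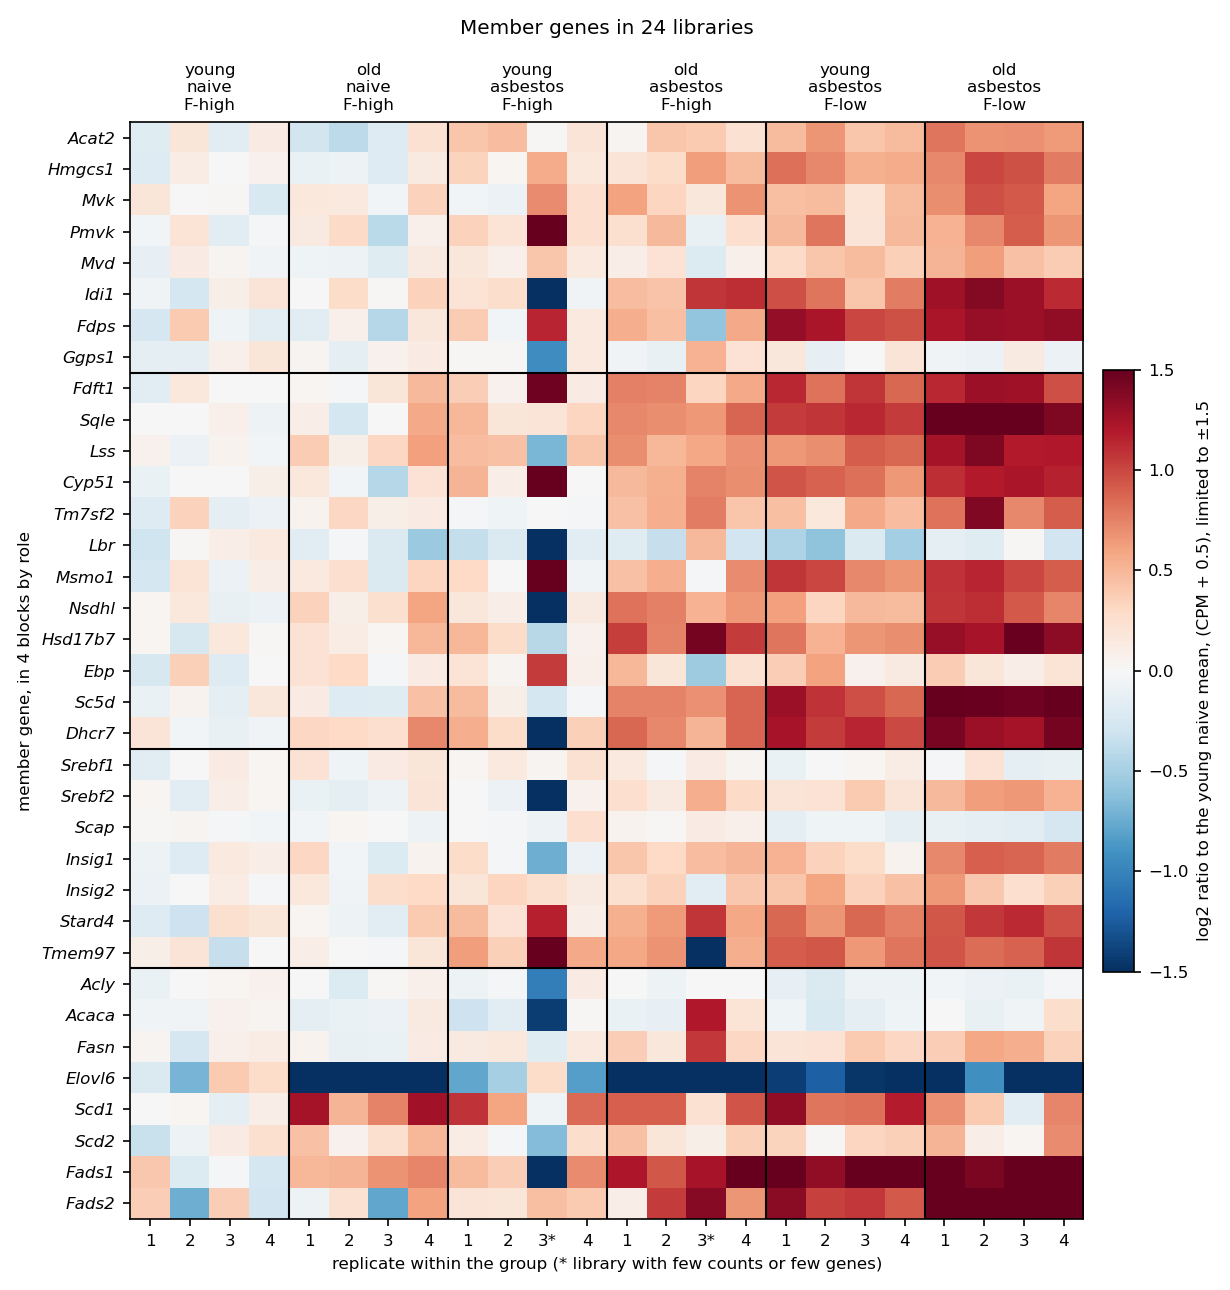
Level of each of the 35 members in each of the 24 libraries, as the log2 ratio of CPM + 0.5 to the young naive mean of that gene, with colours limited at 1.5 in either direction. Rows are genes grouped by role, columns are libraries by group and replicate number, and an asterisk marks the libraries that stand apart. Most rows of the first roles turn warm toward the right, in the Siglec F-low libraries, while Elovl6 runs the other way.

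Per kilobase of exons, which allows levels of different genes to be compared, Acly led in young naive cells at 70.0 CPM per kb, ahead of Mvd at 40.9 and Srebf1 at 29.5, and Fads2 was lowest at 0.195. In old Siglec F-low cells Acly stood at 66.8, Mvd at 57.7, Insig1 at 40.6 and Hmgcs1 at 40.2 CPM per kb. Sqle moved from rank 19 of 35 (6.46 CPM per kb) in young naive cells to rank 12 (19.6) in old Siglec F-low cells, and Elovl6 from rank 26 to rank 35.

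In the mevalonate segment, Hmgcs1 (ENSMUSG00000093930, chr13:119690379-119708260, plus strand) encodes the cytosolic synthase that opens the pathway. Its level was 88.2, 109, 100.5 and 106 CPM in young and 93.8, 96, 88.5 and 111 in old naive cells. After asbestos it was 128, 103, 149 and 113 in the young and 116, 122, 156 and 141 in the old Siglec F-high sort, against 179.8, 166, 147 and 148 in the young and 166, 203, 195 and 174 in the old Siglec F-low sort. All old Siglec F-low libraries lay above all old Siglec F-high ones, and in young cells the sorts separated once replicate 3 of the Siglec F-high group was left out. Fdps (ENSMUSG00000059743, chr3:89093588-89101959, minus strand), whose product farnesyl diphosphate feeds sterols and protein prenylation, stood at 25, 39.1, 28.5 and 26.4 CPM in young naive and 26.6, 31.4, 22 and 33.4 in old naive cells. In the Siglec F-high sort after asbestos it was 39, 28.9, 66.4 and 33 in young and 43.5, 40.7, 19.6 and 44.3 in old cells, and in the Siglec F-low sort 75.1, 70.4, 59.9 and 58.2 in young and 70.2, 74.5, 73.3 and 75.2 in old cells. The Siglec F-low sort lay above the Siglec F-high sort at either age among the 22 libraries, and the replicates 3 fell on opposite sides of their groups, high in young and low in old cells.

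Idi1, which isomerises the building block of isoprenoids, was measured at 4.22, 3.56, 4.71 and 5.09 CPM in the young and 4.43, 5.44, 4.48 and 5.74 in the old naive group. After asbestos Idi1 was 5.14, 5.37, 0 and 4.24 CPM in the young and 6.27, 6.09, 9.80 and 10.04 in the old Siglec F-high sort. Its Siglec F-low levels were 9.04, 8.04, 6.02 and 7.82 CPM in young and 11.4, 12.2, 11.4 and 10.2 in old cells, and all Siglec F-low libraries lay above the Siglec F-high libraries of the same age. Mvd, the decarboxylase of the segment, gave 69.9, 82.8, 78.3 and 73.2 CPM in young and 72.6, 72.2, 66.8 and 83.2 in old naive cells. After asbestos Mvd was 85.5, 80.4, 102 and 84.2 CPM in the young and 81.7, 88.6, 66.2 and 80.4 in the old Siglec F-high sort. Mvd gave 92.7, 102, 106 and 97.6 CPM in young and 109, 117, 104 and 99.3 in old Siglec F-low cells, the old libraries all above the old Siglec F-high ones. Mvk, mevalonate kinase, was 15.6, 13.7, 13.8 and 11.6 CPM in the young and 15.3, 15.2, 13.3 and 17.5 in the old naive group and 13.2, 12.9, 22.7 and 16.3 in the young and 21, 17.3, 15.5 and 22.1 in the old Siglec F-high sort. In the Siglec F-low sort it was 18.9, 19.3, 15.8 and 19.2 CPM in young and 22.5, 27.3, 26.4 and 20.9 in old cells, with the old libraries all above the young ones. Acat2, the thiolase that supplies acetoacetyl-CoA, was 9.16, 11.9, 9.33 and 11.4 CPM in the young and 8.57, 7.86, 9.12 and 12.4 in the old naive group. After asbestos Acat2 was 14.1, 14.6, 10.6 and 12 CPM in the young and 10.8, 14.1, 13.9 and 12.3 in the old Siglec F-high sort. Acat2 in the Siglec F-low sort was 14.8, 16.8, 14.2 and 14.7 CPM in young and 18.5, 17, 17.1 and 16.5 in old cells. Acat2 separated the sorts in old cells, but 39.1% of the 50-base words of its transcripts are also found in Acat3, so that its counts are uncertain; 17.7% of the words of Idi1 and 12.1% of those of Fdps are shared with the gene models Gm13502 and Gm3571, in that order.

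Sqle (ENSMUSG00000022351, chr15:59315077-59331192, plus strand) encodes squalene epoxidase, a rate-limiting enzyme of the branch that leads from squalene to cholesterol. It was measured at 35.6, 36, 37.8 and 33.8 CPM in young naive and 38.5, 29.9, 35.6 and 53.2 in old naive cells. The Siglec F-high sort after asbestos gave 50.8, 40.8, 41 and 45 CPM in young and 59.5, 58.4, 56.4 and 65.9 in old cells, and the Siglec F-low sort 74.8, 76, 79.2 and 74.9 in young and 108, 115, 117 and 95.2 in old cells. With or without the libraries that stand apart, the groups overlapped in none of the 7 comparisons but that of old with young naive cells. Sc5d (ENSMUSG00000032018, chr9:42251595-42264256, minus strand), a sterol desaturase near the end of the pathway, was 13.5, 15.1, 13.2 and 16.4 CPM in young and 15.9, 12.6, 12.8 and 19.9 in old naive cells. After asbestos it was 20.4, 15.5, 12 and 14.3 CPM in the young and 24.8, 24.6, 23.7 and 27.1 in the old Siglec F-high sort and 36.1, 31.4, 28.9 and 26.7 in the young and 41.7, 41.5, 40.8 and 41.9 in the old Siglec F-low sort. Old libraries stood above young ones in both sorts after asbestos, and Siglec F-low above Siglec F-high libraries at both ages, without overlap.

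Hsd17b7 (ENSMUSG00000026675, chr1:169949535-169969241, minus strand), the ketoreductase of sterol demethylation, was 15.4, 12.7, 16.9 and 15.3 CPM in young naive and 17.7, 16.3, 15.4 and 21.5 in old naive cells. It reached 21.4, 18.3, 11.2 and 15.8 CPM in the young and 31.6, 25.5, 41.7 and 31.7 in the old Siglec F-high sort after asbestos. Hsd17b7 in the Siglec F-low sort was 26.8, 21.8, 24.1 and 24.8 CPM in young and 38.1, 36.1, 42.9 and 39 in old cells. Its old libraries exceeded all young ones in both sorts after asbestos. Nsdhl, the dehydrogenase that acts in the same demethylation complex, was 21.4, 23.4, 19.3 and 19.7 CPM in the young and 26.8, 22.3, 24.9 and 31.8 in the old naive group. After asbestos Nsdhl was 23.7, 22.5, 6.09 and 23.1 CPM in the young and 37.1, 35.7, 30.2 and 33.1 in the old Siglec F-high sort. In the Siglec F-low sort Nsdhl was 32.3, 26.4, 29.6 and 29.3 CPM in young and 44.7, 45.7, 40.2 and 35.1 in old cells. Old and young libraries did not overlap in either sort after asbestos, while the old sorts overlapped each other. Msmo1, the oxidase of that complex, was 43.7, 60.5, 49.5 and 56 CPM in the young and 57.9, 62.6, 45.2 and 65.7 in the old naive group. After asbestos Msmo1 was 64.5, 52.4, 219 and 50.5 CPM in the young and 71.1, 76.9, 51.5 and 85.9 in the old Siglec F-high sort. Msmo1 in the Siglec F-low sort was 110.3, 105, 86.7 and 83.1 CPM in young and 112, 116, 105 and 99 in old cells. The value of 219 CPM belongs to young asbestos Siglec F-high replicate 3 and is higher than in any other library.

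Lss (ENSMUSG00000033105, chr10:76531588-76557138, plus strand), which closes the rings of lanosterol, was 19.4, 17.4, 19.1 and 18 CPM in young and 24.2, 19.6, 23 and 28.7 in old naive cells. After asbestos Lss was 25.6, 25.1, 11.3 and 24.8 CPM in the young and 30.2, 26.2, 27.8 and 29.99 in the old Siglec F-high sort. Lss in the Siglec F-low sort was 29.1, 30.2, 35.1 and 34 CPM in young and 44.6, 49.7, 42.8 and 43 in old cells. Old libraries lay above young ones in all 3 settings, and old Siglec F-low cells lay above all others. Dhcr7 (ENSMUSG00000058454, chr7:143823145-143848410, plus strand), the reductase that yields cholesterol from its direct precursor, was 60.02, 50.8, 48.3 and 50.7 CPM in young naive and 65, 64.6, 62.5 and 87 in old naive cells. After asbestos Dhcr7 was 76.5, 63.5, 8.80 and 67.6 CPM in the young and 96, 87.1, 75.1 and 96.4 in the old Siglec F-high sort and 124, 109, 116 and 105 in the young and 141, 129, 126 and 143 in the old Siglec F-low sort. Its groups separated in all 7 comparisons among the 22 libraries, and the lowest value of all, 8.80, was that of young asbestos Siglec F-high replicate 3. Fdft1, squalene synthase, was 19.3, 24, 21.4 and 21.4 CPM in the young and 22, 21.1, 24.4 and 30.4 in the old naive group. After asbestos Fdft1 was 27.8, 22.5, 59.8 and 23.5 CPM in the young and 36.6, 36.3, 27 and 32.1 in the old Siglec F-high sort. Fdft1 in the Siglec F-low sort was 47.7, 38, 45.6 and 39.3 CPM in young and 47.8, 53, 52.7 and 42.6 in old cells. Exons of Ctsb on the opposite strand cover 18.3% of the Fdft1 exons, and whether counting used strand is not given in the sources used here.

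Cyp51, the lanosterol demethylase, was 60.6, 65.1, 65.1 and 69.2 CPM in the young and 72.8, 63, 48 and 75.6 in the old naive group. After asbestos Cyp51 was 92.7, 69.7, 208 and 64.6 CPM in the young and 90.9, 94.2, 109 and 106 in the old Siglec F-high sort. Cyp51 in the Siglec F-low sort was 125, 121, 116 and 102 CPM in young and 141, 148, 153 and 146 in old cells. Its Siglec F-low libraries exceeded the Siglec F-high ones of the same age except for replicate 3 of the young group at 208. Tm7sf2, a sterol reductase that shares its step with Lbr, was 6.49, 9.67, 6.75 and 7.05 CPM in the young and 7.81, 9.37, 8.01 and 8.17 in the old naive group. After asbestos Tm7sf2 was 7.34, 7.16, 7.44 and 7.42 CPM in the young and 10.3, 11.2, 13.1 and 10.2 in the old Siglec F-high sort. Tm7sf2 in the Siglec F-low sort was 10.5, 8.38, 11.4 and 10.5 CPM in young and 13.5, 20.3, 12.7 and 14.5 in old cells. After asbestos its old libraries lay above its young ones in either sort, and 12.1% of its exons overlap Vps51 on the same strand. Lbr and Ebp, a sterol isomerase, were called in no comparison and their groups overlapped in all 7 among the 22 libraries.

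**Figure D3:**
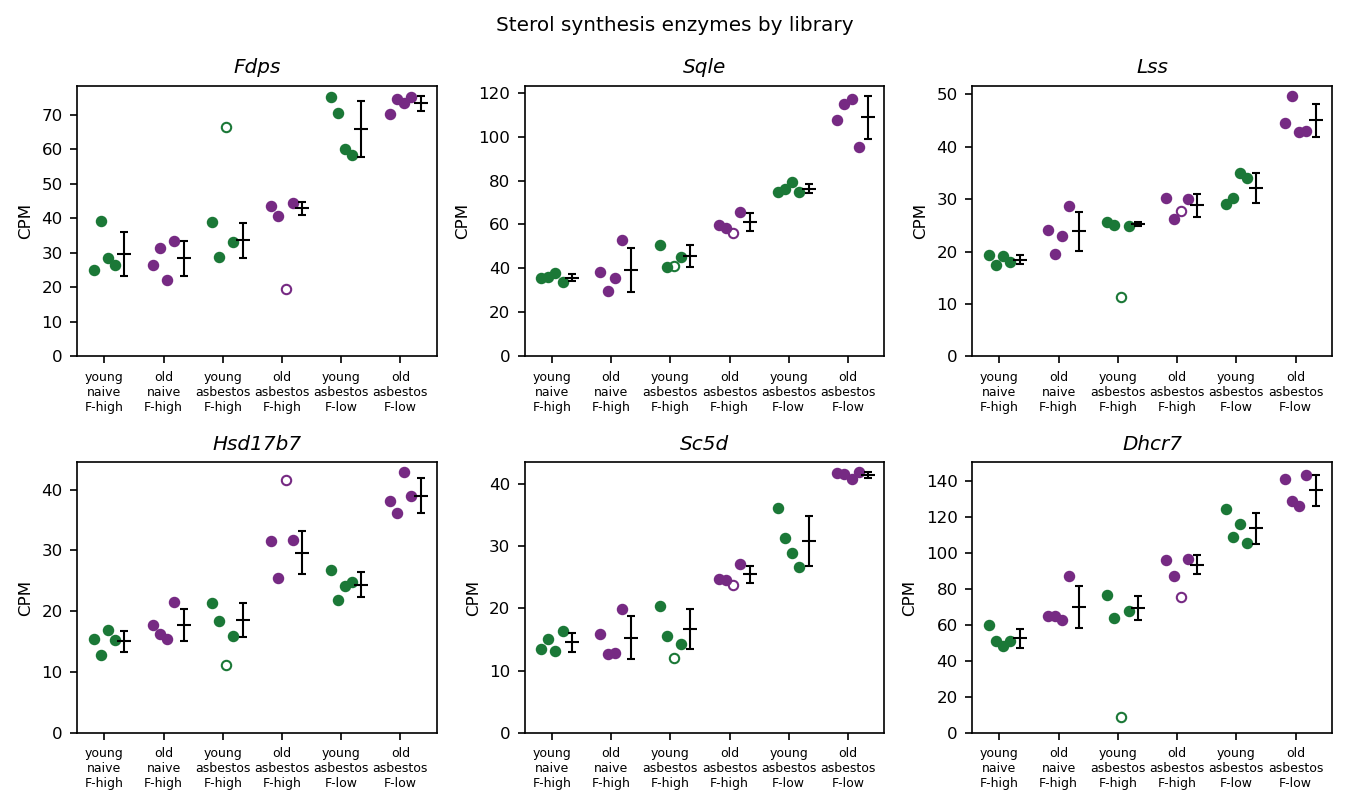
CPM of Fdps, Sqle, Lss, Hsd17b7, Sc5d and Dhcr7 by group, each panel a gene; each point is a library, in green for young and purple for old cells, with open symbols for the libraries that stand apart, and the black marks are the mean ± SD of the others. Group means step up at either age from naive to Siglec F-high to Siglec F-low after asbestos, and old Siglec F-low libraries reach the highest values for Sqle, Lss and Sc5d.

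Among the regulators, Srebf2, which encodes the SREBP of the sterol arm, was 156, 136, 164 and 155 CPM in young and 142, 139, 145 and 174 in old naive cells. After asbestos Srebf2 was 154, 144, 42.3 and 159 CPM in the young and 182, 168, 223 and 186 in the old Siglec F-high sort. Srebf2 in the Siglec F-low sort was 175, 177, 201 and 174 CPM in young and 215, 237, 240.4 and 219 in old cells. Old Siglec F-low libraries lay above all young ones, and young asbestos Siglec F-high replicate 3 was far below its group. Insig1, a retention protein of the SREBP complex and itself an SREBP target, was 67.4, 61.9, 78.4 and 76.3 CPM in the young and 88.1, 69.1, 61.4 and 73.8 in the old naive group. After asbestos Insig1 was 85.8, 69.3, 42.6 and 66.8 CPM in the young and 95.2, 87.6, 98 and 102 in the old Siglec F-high sort. Insig1 in the Siglec F-low sort was 102, 90.1, 85.9 and 73.8 CPM in young and 118, 133, 129.9 and 122 in old cells. Its old libraries exceeded the young ones in both sorts after asbestos. Stard4, a soluble sterol carrier, was 20.8, 19.2, 28.2 and 27.2 CPM in the young and 24.4, 22.6, 21.2 and 31.4 in the old naive group. After asbestos Stard4 was 33.2, 27.7, 54 and 25.6 CPM in the young and 34.7, 37.3, 50.6 and 35.9 in the old Siglec F-high sort. Stard4 in the Siglec F-low sort was 43.8, 37.9, 43.7 and 40.6 CPM in young and 45.9, 50.1, 52.3 and 47.2 in old cells. Stard4 separated young from old Siglec F-low cells, the old being higher. Tmem97, a sterol-regulated protein of the endoplasmic reticulum, was 13.9, 15.1, 10.3 and 13.2 CPM in the young and 14.2, 13.1, 13 and 14.9 in the old naive group. After asbestos Tmem97 was 20.6, 17, 45.3 and 19.8 CPM in the young and 19.8, 21.3, 4.08 and 19.4 in the old Siglec F-high sort. Tmem97 in the Siglec F-low sort was 25.1, 25.4, 21 and 23.2 CPM in young and 25.8, 23.8, 24.7 and 28.1 in old cells. For Stard4 the old Siglec F-high libraries after asbestos lay above the old naive ones, and for Tmem97 they did so without replicate 3, which stood at 4.08. Tmem97 shares 20.8% of its 50-base words with the gene model Gm5809.

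Scap, the escort of the SREBPs, was 104, 106, 102 and 100.05 CPM in the young and 99.6, 105, 103 and 97.5 in the old naive group. After asbestos Scap was 102, 102, 97.8 and 123 CPM in the young and 107, 104, 112 and 109 in the old Siglec F-high sort. Scap in the Siglec F-low sort was 93.3, 98.1, 98.2 and 93.5 CPM in young and 95.4, 93.2, 91 and 86.5 in old cells. Old Siglec F-low libraries lay below all old Siglec F-high ones. Srebf1, which encodes the SREBP of the fatty acid arm, was called in no comparison, with groups that overlapped in all 7. Insig2 was likewise never called, at 16.4 to 18.8 CPM in young naive and 20.8 to 27.6 in old Siglec F-low cells.

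The fatty acid genes moved apart from one another. Elovl6 (ENSMUSG00000041220, chr3:129532355-129638495, plus strand), which elongates saturated and monounsaturated fatty acids of palmitate length, was 16.6, 11.7, 25.6 and 23.6 CPM in young naive and 6.35, 5.44, 6.24 and 6.45 in old naive cells. In the Siglec F-high sort after asbestos it was 11.1, 13.5, 23.5 and 10.7 in young and 4.10, 5.10, 0.817 and 5.46 in old cells, and in the Siglec F-low sort 6.95, 7.98, 6.73 and 6.45 in young and 5.39, 9.98, 3.82 and 2.61 in old cells. Every old library lay below every young one in the Siglec F-high sort, naive or after asbestos, while in the Siglec F-low sort the ages overlapped. Scd1 (ENSMUSG00000037071, chr19:44394455-44407879, minus strand), a stearoyl-CoA desaturase, was 46.5, 47.5, 41.8 and 49.9 CPM in young naive and 111, 66.1, 78.3 and 112 in old naive cells, the old libraries all above the young. After asbestos Scd1 was 98.8, 70.5, 44.3 and 84.4 CPM in the young and 87.2, 86.8, 54.7 and 89.8 in the old Siglec F-high sort. Scd1 in the Siglec F-low sort was 118, 81.1, 82.5 and 105 CPM in young and 74.9, 61.4, 41.6 and 77.4 in old cells, where the old libraries all lay below the young. The order of old and young cells was thus opposite in the naive and the Siglec F-low groups, a difference that was not tested.

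Fads1 (ENSMUSG00000010663, chr19:10182888-10196877, plus strand), a desaturase of polyunsaturated fatty acids, was 11.2, 7.19, 8.21 and 6.88 CPM in young and 12.1, 12.1, 13.7 and 14.2 in old naive cells. After asbestos it was 11.8, 10.9, 2.51 and 14 CPM in the young and 20.1, 16.5, 20.4 and 24.7 in the old Siglec F-high sort. Fads1 in the Siglec F-low sort was 27.8, 21.9, 28.3 and 28.2 CPM in young and 32.9, 23.2, 35.7 and 37.8 in old cells. All young Siglec F-low libraries exceeded all young Siglec F-high ones, whereas the old sorts overlapped. Fads2, the partner desaturase and a close neighbour of Fads1 on chromosome 19, was low, at 0.978, 0.191, 0.972 and 0.434 CPM in the young and 0.583, 0.842, 0.166 and 1.24 in the old naive group. After asbestos Fads2 was 0.804, 0.795, 1.06 and 0.998 CPM in the young and 0.723, 1.87, 2.45 and 1.31 in the old Siglec F-high sort. Fads2 in the Siglec F-low sort was 2.43, 1.83, 1.89 and 1.66 CPM in young and 3.59, 4.24, 3.95 and 3.53 in old cells. Siglec F-low libraries of Fads2 stood above the Siglec F-high ones at either age. Acly, which makes cytosolic acetyl-CoA, Acaca, the carboxylase that follows it, Fasn, the fatty acid synthase, and Scd2, another stearoyl-CoA desaturase, were called in no comparison. Over the 22 libraries Acly ranged from 319 to 402 CPM, Acaca from 21.2 to 31.7, Fasn from 77.7 to 139 and Scd2 from 68.1 to 141. By group, Fasn was 77.7 to 100.5 CPM in young naive, 102.5 to 103.5 in young asbestos Siglec F-high and 106 to 122 in young Siglec F-low cells. In old cells Fasn was 86.0 to 101, 105 to 120.5 and 119 to 139 CPM in the same order. Pmvk, Ggps1, Lbr, Ebp, Srebf1 and Insig2 complete the 10 members called in neither fit, and ranged from 17.3 to 43.6, 10.6 to 13.8, 10.2 to 17.4, 46.1 to 83.5, 147 to 194 and 16.4 to 27.6 CPM. With a replicate block in the 22-library fit, Pmvk was called between the old Siglec F-low and Siglec F-high sorts, and Fasn between old asbestos and old naive cells. The labels do not say that replicate numbers pair these libraries. Of the other 25 members, called in at least 1 of the 7 comparisons with 22 libraries, 12 were called with 24.

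**Figure D4:**
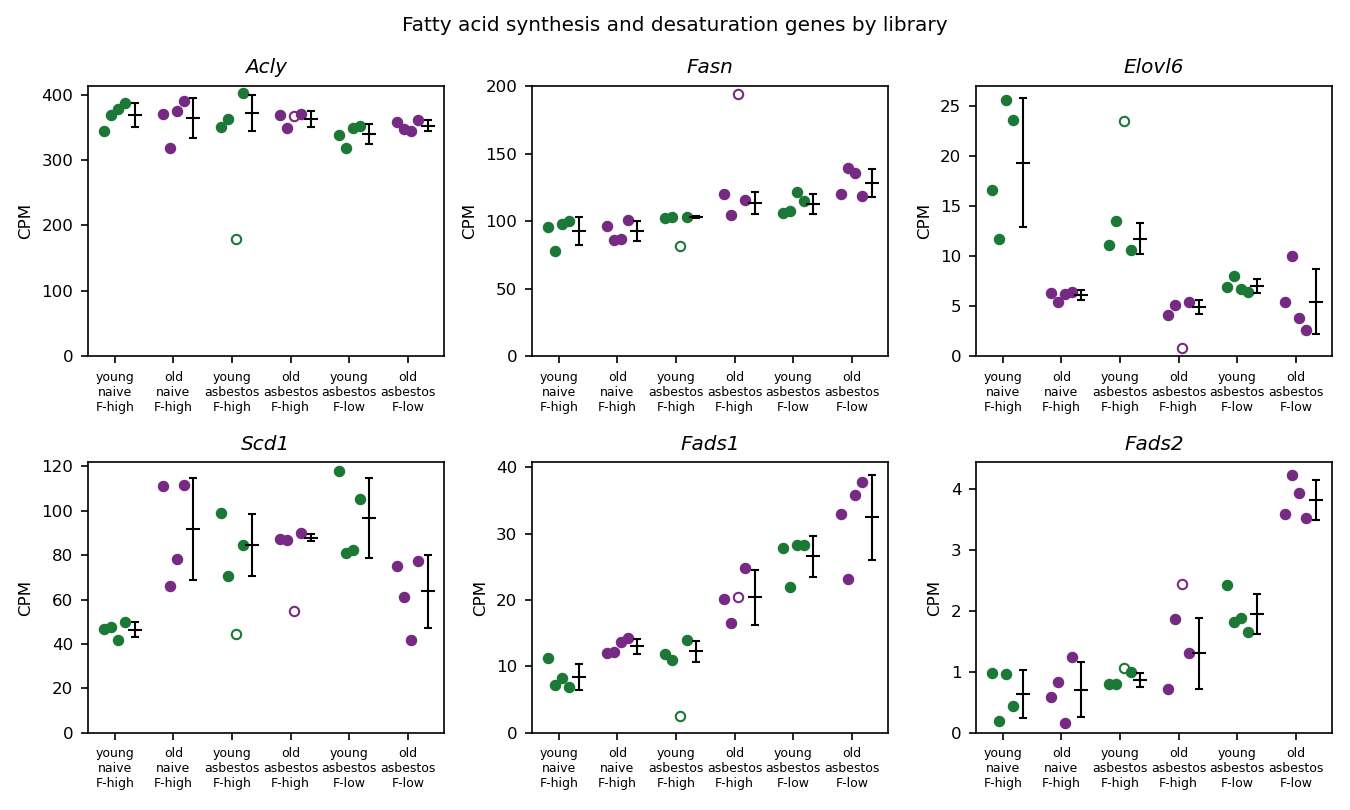
CPM of Acly, Fasn, Elovl6, Scd1, Fads1 and Fads2 by group, each panel a gene; points, open symbols and black marks are as in the plot of the sterol enzymes. Elovl6 is lower in old than in young Siglec F-high cells, Scd1 is higher in old than in young naive cells, and Fads1 and Fads2 are highest in the Siglec F-low sort.

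Differences between groups were tested with the quasi-likelihood F test of edgeR across all genes, with Benjamini-Hochberg adjustment, and genes with an adjusted p under 0.05 are described as called. Percentages beside the counts give the share of all genes tested that was called. Fold changes are log2 values ± SE, and n is 4 libraries per group, or 3 in either asbestos Siglec F-high group among the 22. The 7 comparisons share libraries with one another, so their results are not independent. The first asked how age bears on naive Siglec F-high cells. Elovl6 fell and Scd1 rose with age: Elovl6 changed by -1.66 ± 0.34 (adjusted p = 0.00642) with 24 libraries and -1.66 ± 0.26 (adjusted p = 0.000187) with 22, and Scd1 by 0.98 ± 0.23 (adjusted p = 0.0217) and 0.99 ± 0.17 (adjusted p = 0.00064). With 24 libraries 2 of 35 members were called, 1 in each direction, where 2.03% of all genes were (1.68% higher). With 22 libraries 6 were called, 5 higher and 1 lower, against 8.03% of all genes, 5.11% higher and 2.91% lower. The 4 added were all higher in old cells, namely Dhcr7 by 0.42 ± 0.10 (adjusted p = 0.00731), Lss by 0.37 ± 0.10 (adjusted p = 0.0155), Fads1 by 0.64 ± 0.17 (adjusted p = 0.0179) and Nsdhl by 0.34 ± 0.10 (adjusted p = 0.0385). The CPM of old and young libraries did not overlap for 5 members, 4 higher and Elovl6 lower, and for 12.0% of all genes in either fit. The median log2 fold change of the members was 0.07 with 24 and 0.08 with 22 libraries, and that of all genes lay between -0.01 and 0.04 in each of the 7 comparisons of either fit. Of the 10 proliferation genes 8 fell with age in these cells, and their part in the result was not tested. Without old naive replicate 4, which had the highest value of its group for 16 of the 20 sterol enzymes, 3 members were called in place of 6; Elovl6, Scd1 and Dhcr7 kept their calls whichever library was left out of the 22.

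In the Siglec F-high sort after asbestos, old cells had more transcripts of Hsd17b7, Nsdhl, Sc5d and Fads1 than young cells, and less Elovl6, in either fit. Of the 12 enzymes between squalene and cholesterol, 4 were called with 24 libraries and 7 with 22, all higher. Their sum was 486, 407, 701 and 408 CPM in the young and 579, 550.2, 515 and 595 in the old libraries, so that young replicate 3 lay above every old library. With 24 libraries 6 members were called (4.76% of all genes, 2.89% higher) and with 22 libraries 10 (7.32%, 4.84% higher and 2.47% lower), of which Elovl6 alone was lower in either fit. Hsd17b7 rose by 0.92 ± 0.17 (adjusted p = 0.00229) with 24 and 0.68 ± 0.13 (adjusted p = 0.00191) with 22 libraries, Nsdhl by 0.85 ± 0.25 (adjusted p = 0.0482) and 0.62 ± 0.12 (adjusted p = 0.00148), and Sc5d by 0.69 ± 0.16 (adjusted p = 0.0139) and 0.61 ± 0.15 (adjusted p = 0.0126). Elovl6 changed by -1.70 ± 0.36 (adjusted p = 0.00826) and -1.26 ± 0.31 (adjusted p = 0.0148), and Fads1 by 1.04 ± 0.30 (adjusted p = 0.047) and 0.75 ± 0.18 (adjusted p = 0.0138). Tm7sf2 was called with 24 libraries at 0.57 ± 0.16 (adjusted p = 0.047) but not with 22, at an adjusted p of 0.0521 by edgeR. With 22 libraries Fdft1 rose by 0.52 ± 0.13 (adjusted p = 0.0135), and Dhcr7, Mvk, Msmo1 and Sqle by 0.44 to 0.52. The fits disagreed on the sign for 11 members, among them Msmo1, at -0.41 with 24 and 0.49 with 22 libraries. The 2 libraries that differ between the fits both belong to these groups. Old and young libraries did not overlap with 24 libraries for 12 members, 11 of them higher in old cells (9.42% of all genes), and with 22, which leave 3 in each group, for 18 members, 17 of them higher (27.6%). The median log2 fold change with 22 libraries was 0.21 over the members and 0.40 over the sterol enzymes, and 0.23 over the members with 24. Leaving out young replicate 2 brought the count of 10 down to 2, with Nsdhl and Hsd17b7 kept, and leaving out young replicate 4 or old replicate 1 or 4 brought it to 5. Of the 10 proliferation genes 7 fell with age here, and their part was not tested.

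In the Siglec F-low sort, old cells again had more sterol enzyme transcripts, together with Srebf2 and Insig1, and less Scd1. With 24 libraries 2 members were called (1.29% of all genes), Hsd17b7 at 0.68 ± 0.16 (adjusted p = 0.0366) and Sqle at 0.51 ± 0.13 (adjusted p = 0.0472). With 22 libraries 11 were called (7.21% of all genes, 3.80% higher and 3.41% lower), 10 of them higher. Hsd17b7 rose by 0.69 ± 0.11 (adjusted p = 0.00039), Lss by 0.49 ± 0.09 (adjusted p = 0.00146), Nsdhl by 0.50 ± 0.10 (adjusted p = 0.00231), Insig1 by 0.52 ± 0.11 (adjusted p = 0.00369), Sqle by 0.52 ± 0.11 (adjusted p = 0.00547) and Srebf2 by 0.33 ± 0.08 (adjusted p = 0.00813). Tm7sf2, Mvk, Sc5d and Idi1 rose by 0.41 to 0.59, and Scd1 fell by 0.59 on the log2 scale. The libraries left out belong to neither of these groups, and the fold changes of the fits differed little. CPM did not overlap for 15 members, 14 higher and Scd1 lower, and for 12.9% of all genes in either fit. The median log2 fold change of the members was 0.20 with 24 and 0.21 with 22 libraries. All 10 proliferation genes fell with age in this sort and 6 of 10 monocyte-derived markers rose, and their part in the result was not tested. The count of 11 became 7 without young Siglec F-low replicate 2 or 4 or old replicate 3, and 6 without old replicate 2, while the 6 genes with the smallest p kept their calls. With 24 libraries, leaving out any 1 of the 8 Siglec F-low libraries ended both calls.

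The next pair of comparisons asked what differs 28 days after asbestos within the Siglec F-high sort. In young cells, no member was called with 24 libraries, where 1.90% of all genes were (1.43% higher). An unadjusted p under 0.05 by edgeR was found for 10 members, but the share of all genes at that threshold is not given here. DESeq2 called 2 members (4.41% of all genes) and limma voom with quality weights 7 (14.1%). With 22 libraries 4 members rose (5.06% of all genes were called, 3.48% higher and 1.58% lower). These were Tmem97 by 0.54 ± 0.11 (adjusted p = 0.00505), Scd1 by 0.86 ± 0.19 (adjusted p = 0.00727), Lss by 0.44 ± 0.10 (adjusted p = 0.0115) and Dhcr7 by 0.40 ± 0.10 (adjusted p = 0.0249), all by edgeR. All 4 calls were lost without young asbestos Siglec F-high replicate 1, which left 2 libraries in its group. CPM did not overlap with 24 libraries for 4 members (8.49% of all genes) and with 22 for 9 (16.7%), all higher after asbestos. The median log2 fold change of the members was 0.16 with 22 and 0.21 with 24 libraries. Of the 10 monocyte-derived markers and the 10 resident markers 5 each rose, 4 of 10 proliferation genes rose and 5 of 6 B cell markers fell; their part was not tested.

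In old cells the asbestos groups had more transcripts of Hsd17b7, Sqle and Sc5d in either fit. With 24 libraries these 3 were the members called (0.780% of all genes, 0.0668% lower), Hsd17b7 at 0.84 ± 0.17 (adjusted p = 0.0168), Sqle at 0.62 ± 0.13 (adjusted p = 0.0227) and Sc5d at 0.72 ± 0.16 (adjusted p = 0.0265). With 22 libraries 12 were called, all higher (4.12% of all genes, 3.16% higher). Hsd17b7 rose by 0.74 ± 0.12 (adjusted p = 0.000793), Sc5d by 0.74 ± 0.14 (adjusted p = 0.00273), Sqle by 0.64 ± 0.12 (adjusted p = 0.0032), Tmem97 by 0.55 ± 0.11 (adjusted p = 0.00501), Cyp51 by 0.58 ± 0.12 (adjusted p = 0.00734) and Fdft1 by 0.52 ± 0.12 (adjusted p = 0.0136). The others, Fdps, Dhcr7, Stard4, Nsdhl, Fads1 and Hmgcs1, rose by 0.38 to 0.65. CPM did not overlap with 24 libraries for 10 members (7.70% of all genes) and with 22 for 16 (16.5%), all higher. The median log2 fold change with 22 libraries was 0.38 over the members and 0.41 over the sterol enzymes (0.36 over the members with 24). With 24 libraries the count fell to 0 when old naive replicate 1, 2 or 3 was left out and to 1 when old asbestos Siglec F-high replicate 1 or 4 was. It was 10 when replicate 3 of the young asbestos Siglec F-high group, which is in neither group compared, was left out. With 22 it fell to 6 without old naive replicate 2 or 3 or old asbestos replicate 1 and to 5 without old asbestos replicate 4, and Hsd17b7, Sc5d, Sqle and Tmem97 kept their calls. Of the 10 monocyte-derived markers 3 rose and 3 of 6 B cell markers fell, and their part was not tested. The interaction with age, which asks whether the asbestos difference itself differs between old and young cells, was called for no member by edgeR in either fit, nor by DESeq2 or limma voom. At an adjusted p under 0.05, 0 and 0.0147% of all genes were called by edgeR with 24 and 22 libraries. At an unadjusted p under 0.05 there were 6 members with 24 and 6 with 22 libraries. The share of all genes at that looser threshold is not given here, so these counts cannot be read as an excess. A call in old and not in young cells therefore does not show that the ages differ.

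The last pair compared the Siglec F-low with the Siglec F-high sort after asbestos, and here the counts of members called were highest with 22 libraries. In young cells Sc5d rose by 0.98 ± 0.15 (adjusted p = 0.000324) with 24 libraries, Sqle by 0.78 ± 0.13 (adjusted p = 0.00057) and Fads1 by 1.42 ± 0.29 (adjusted p = 0.00432), the 3 members called (4.99% of all genes, 3.41% higher and 1.58% lower). With 22 libraries 16 were called, all higher (12.0% of all genes, 4.60% lower). Dhcr7 rose by 0.71 ± 0.10 (adjusted p = 5.37e-05), Fdps by 0.97 ± 0.14 (adjusted p = 6.09e-05), Fdft1 by 0.79 ± 0.12 (adjusted p = 9.12e-05), Fads1 by 1.12 ± 0.17 (adjusted p = 0.000115), Sc5d by 0.87 ± 0.14 (adjusted p = 0.000168) and Msmo1 by 0.79 ± 0.13 (adjusted p = 0.000239). Sqle, Cyp51, Hmgcs1, Stard4, Idi1, Lss, Mvd, Hsd17b7, Nsdhl and Srebf2 rose by 0.25 to 0.74. CPM did not overlap with 24 libraries for 14 members, 13 higher and Elovl6 lower (12.4% of all genes). With 22 libraries, 3 of them in the Siglec F-high group, it did not for 23, 21 higher and Scap and Elovl6 lower (23.9%). The median log2 fold change with 22 libraries was 0.31 over the members and 0.43 over the sterol enzymes (0.25 over the members with 24). With 24 libraries the count of 3 became 8, 12 or 5 when young asbestos Siglec F-high replicate 1, 3 or 4 was left out and 6 when replicate 3 of the old group was, and the 3 members kept their calls throughout. With 22 it became 10 without young asbestos Siglec F-high replicate 2 or 4, while the 6 of smallest p, Sqle, Cyp51 and Hmgcs1 kept their calls. Of the 10 monocyte-derived markers 9 rose, while 3 of the resident markers rose and 3 fell, and no proliferation gene was called by edgeR, with 2 at an unadjusted p under 0.05; their part was not tested.

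In old cells Sqle rose by 0.85 ± 0.13 (adjusted p = 0.000301) with 24 libraries, Sc5d by 0.72 ± 0.16 (adjusted p = 0.00771), Fdps by 0.93 ± 0.23 (adjusted p = 0.0198), Mvd by 0.43 ± 0.10 (adjusted p = 0.0199), Hmgcs1 by 0.47 ± 0.12 (adjusted p = 0.0307) and Lss by 0.66 ± 0.18 (adjusted p = 0.0343), the 6 members called (4.30% of all genes, 2.64% higher). With 22 libraries 21 were called (11.6% of all genes, 6.30% higher and 5.28% lower), 20 of them higher, 14 of these sterol enzymes. Sqle rose by 0.82 ± 0.12 (adjusted p = 8.86e-05), Lss by 0.64 ± 0.10 (adjusted p = 0.000145), Fdps by 0.77 ± 0.14 (adjusted p = 0.000664), Hmgcs1 by 0.54 ± 0.10 (adjusted p = 0.000832), Dhcr7 by 0.53 ± 0.10 (adjusted p = 0.00125) and Sc5d by 0.70 ± 0.14 (adjusted p = 0.00127). The other 14 higher members rose by 0.34 (Tmem97) to 1.54 (Fads2), among them Srebf2 by 0.35 and Insig1 by 0.40, and Scap fell by 0.23 on the log2 scale. CPM did not overlap with 24 libraries for 17 members, 16 higher and Scap lower (16.3% of all genes). With 22 it did not for 22, 20 higher and Scap and Scd1 lower (22.8%). With 22 libraries the median log2 fold change was 0.38 over the members and 0.48 over the sterol enzymes (0.40 over the members with 24). With 24 libraries the count of 6 became 18 when young asbestos Siglec F-high replicate 3 was left out. It became 3 when old asbestos Siglec F-high replicate 3 or old Siglec F-low replicate 2 or 4 was, and Sqle and Sc5d kept their calls. With 22 it became 11 without old asbestos Siglec F-high replicate 1 or 2. Here too 9 of 10 monocyte-derived markers rose, and 3 resident markers rose and 4 fell; none of the 10 proliferation genes was called by edgeR or had an unadjusted p under 0.05 with 22 libraries, and the part of the other lists was not tested. The interaction of the sort with age was called for no member by edgeR, DESeq2 or limma voom. By edgeR, 0 and 0.0147% of all genes were called with 24 and 22 libraries. At an unadjusted p under 0.05 there were 2 members in either edgeR fit. The share of all genes at that looser threshold is not given here. The median of this interaction over the members was 0.00 with 22 libraries.

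**Figure D5:**
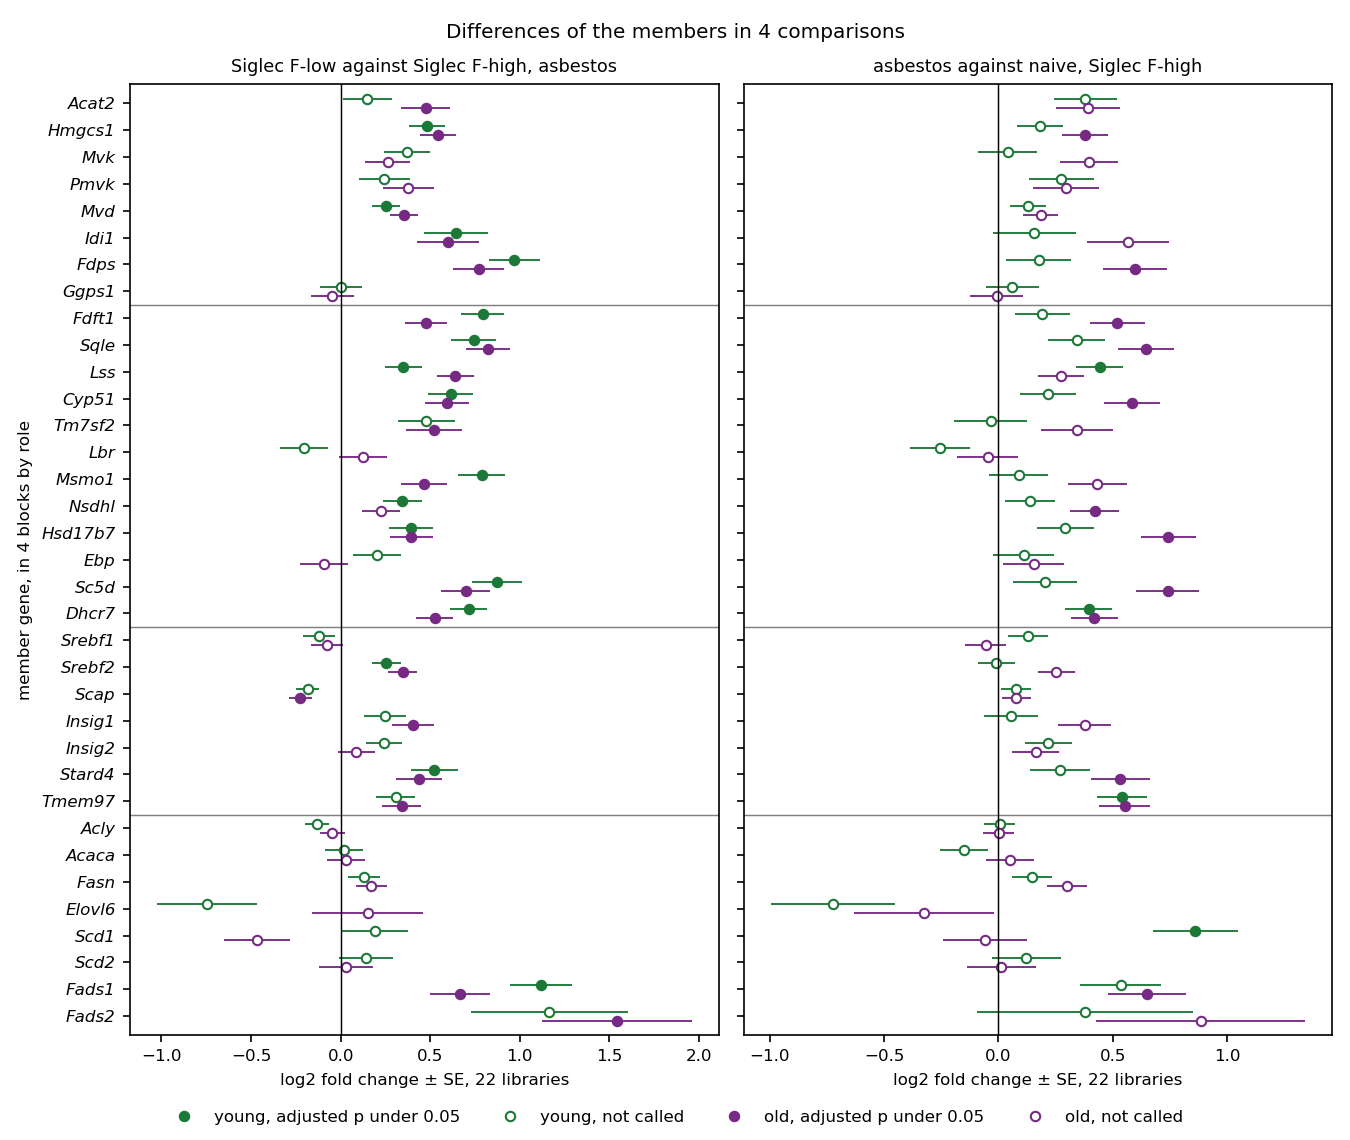
Log2 fold change of each of the 35 members by edgeR with 22 libraries, for Siglec F-low against Siglec F-high cells after asbestos (left) and for asbestos against naive Siglec F-high cells (right). Rows are genes in blocks by role, points are young (green) and old (purple) cells, bars are the SE, and filled points have an adjusted p under 0.05. Most sterol enzymes lie to the right of 0 on the left, at medians of 0.43 in young and 0.48 in old cells, and fewer points are filled on the right.

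Genes beside the pathway moved in both directions. The list of the LXR side held 10 genes, not all of which sense or export sterols. They were Nr1h2, Nr1h3, Abca1, Abcg1, Mylip, Lpcat3, Ch25h, Soat1, Lipa and Npc2, and neither Abca1 nor Abcg1 was called higher in any comparison. With 22 libraries 3 rose with age in naive cells, 2 (Lipa and Npc2) rose in asbestos Siglec F-high cells, and 3 fell in Siglec F-low cells. With asbestos 3 rose in young cells, and 1 rose and 3 fell in old cells. Between the sorts 5 rose and 2 fell in young cells, and 4 fell in old cells. In the same order 8.03, 7.32, 7.21, 5.06, 4.12, 12.0 and 11.6% of all genes were called with 22 libraries. With 24 libraries 2 rose with asbestos in young cells, where 1.90% of all genes were called (1.43% higher). Another 3 fell between the old sorts, where 4.30% of all genes were called (1.66% lower). None of the 10 was called in the other comparisons by edgeR with 24 libraries. Abca1, the exporter of cholesterol and an LXR target, was 224, 257, 306 and 318 CPM in the young and 330.1, 252, 319 and 305 in the old naive group. After asbestos Abca1 was 213, 239, 141 and 275 CPM in the young and 219, 189.6, 488 and 195 in the old Siglec F-high sort. Abca1 in the Siglec F-low sort was 179, 151, 204 and 235 CPM in young and 124, 100.2, 97.1 and 111 in old cells. Its lowest values were those of the old Siglec F-low cells, in which Sqle, Lss and Sc5d were highest. Between the old sorts Abca1 changed by -1.32 ± 0.25 (adjusted p = 0.00227) with 24 libraries and -0.90 ± 0.14 (adjusted p = 8.92e-05) with 22, and with age in the Siglec F-low sort by -0.83 ± 0.13 (adjusted p = 0.000232) with 22, by edgeR. Mylip, the LXR-induced ligase that degrades lipoprotein receptors, was 82.3, 91.7, 101 and 91.8 CPM in the young and 81.2, 65.6, 81.9 and 74.2 in the old naive group. After asbestos Mylip was 65.2, 71.2, 20.9 and 79.1 CPM in the young and 58, 55.4, 44.1 and 48 in the old Siglec F-high sort. Mylip in the Siglec F-low sort was 39, 40.1, 44.3 and 58.1 CPM in young and 27.8, 28.8, 26 and 23.8 in old cells. Mylip changed by -0.96 ± 0.25 (adjusted p = 0.0252) and -1.02 ± 0.12 (adjusted p = 3.84e-06) between the old sorts and by -0.77 ± 0.11 (adjusted p = 0.00013) with age in the Siglec F-low sort. Abcg1, another LXR target, changed by -0.58 ± 0.16 (adjusted p = 0.0348) with 24 and -0.42 ± 0.07 (adjusted p = 0.000512) with 22 libraries between the old sorts. Ch25h, which makes an oxysterol, rose with asbestos in young cells by 2.29 ± 0.42 (adjusted p = 0.00386) and 1.78 ± 0.34 (adjusted p = 0.0028). Further calls of these genes were made with 22 libraries. Abca1, Abcg1 and Mylip changed by -0.58, -0.31 and -0.49 with asbestos in old cells. Abcg1 and Mylip changed by -0.29 and -0.66 between the young sorts, and Abcg1 by -0.27 with age in the Siglec F-low sort. Ch25h rose by 1.35 with asbestos in old cells and by 1.24 between the young sorts.

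Of 9 genes of SREBP processing and turnover, Mbtps2, a protease that releases SREBPs, rose with age in asbestos Siglec F-high cells by 0.46 ± 0.10 (adjusted p = 0.0123) with 24 and 0.45 ± 0.10 (adjusted p = 0.00517) with 22 libraries. With 22 it also rose with asbestos in old cells by 0.34, and Fbxw7, which marks nuclear SREBPs for degradation, rose between the young sorts by 0.28; no other gene of this list was called by edgeR in the 7 comparisons. Of 10 genes that use isoprenoids, Rabggta rose with age in naive cells by 0.30 (22 libraries), and Nus1, of dolichol synthesis, rose with asbestos in young cells by 0.61 with 24 and 0.37 with 22 libraries and between the young sorts by 0.30 with 22. Of 17 further lipogenic genes 16 were tested, all but Thrsp, and with 22 libraries 4, 4, 4, 3, 2, 6 and 5 were called in the 7 comparisons in the order given, 2, 3, 3, 1, 2, 3 and 2 of them higher, to be read against the shares of all genes just given. With 24 libraries Me1, Acsl3 and Lpin1 were the members of this list called, where 0.780 to 4.99% of all genes were called by comparison. Me1, the cytosolic malic enzyme that supplies NADPH, rose with age in naive cells by 2.39 ± 0.43 (adjusted p = 0.000803) and by 2.38 ± 0.59 (adjusted p = 0.0318) with 24 libraries, at 0.0972 to 4.83 CPM over the 22 libraries. Elovl5, an elongase of polyunsaturated fatty acids, was called lower with 22 libraries in 6 comparisons that share groups, at -0.31 with age in naive, -0.22 in asbestos Siglec F-high and -0.30 in Siglec F-low cells, -0.24 with asbestos in young cells, and -0.25 and -0.33 between the young and old sorts. Acsl3, an acyl-CoA synthetase, rose between the young sorts by 1.03 with 24 and 0.87 with 22 libraries and between the old sorts by 0.57 with 22, and Lpin1, a phosphatidate phosphatase, fell between the young sorts by 0.85 and 0.54 on the log2 scale.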

How the data were processed

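Gene counts of 24 libraries of sorted alveolar macrophages, 4 in each of 6 groups set by the sample labels, were deposited by the authors as raw counts per gene. Reads were handled with bcl2fastq 2.19.1, FastQC, Trimmomatic 0.36, STAR 2.6.0 and HTSeq 0.11.2 on mm10, per the submitters' processing notes, and libraries came from 30 ng of RNA with the NEBNext RNA Ultra I kit and poly(A) selection, per the labels' protocols. The annotation and strand setting of the counting are not given in the sources used here. Of 43430 gene IDs in the deposited count table, 42462 had a symbol. No per-sample column was left unused, and no pair of libraries held identical counts.

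Counts were tested with edgeR 4.0.16 in R 4.3.3 (filterByExpr minimum count 10 and total 15, TMM factors, quasi-likelihood F test, 1 fit of 6 groups, Benjamini-Hochberg adjustment over all genes tested, called at 0.05), after the script was tested on simulated data. Both fits, of 24 and of 22 libraries, gave 7 comparisons between 2 groups and 2 age interactions. Alternatives were a replicate block, DESeq2 1.42.0, its size factors in edgeR, no filter, limma 3.58.1 voom with quality weights, groups compared alone and each library left out, the last also in the 22-library fit, which was added after seeing the data. Over 24 libraries no 2 groups had all correlations of deviations between libraries of the same replicate number over 0.1. Over 22 only the old asbestos sorts did, at 0.150 to 0.205, while the young asbestos sorts had 0.0854 to 0.319. The labels do not say whether libraries with the same number came from the same animal, so pairing was not settled. Positions are from GENCODE M21 (mm10), promoter sequences from RefSeq.

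The members and lists were chosen with earlier results of these data known. All 35 members are named. Those called in at least 1 comparison have their values in every library, at most the 6 of smallest p in a comparison have full statistics, and those never called have their range. The other lists were SREBP processing and turnover, further lipogenic genes, isoprenoid use, the LXR side, and markers of resident and monocyte-derived macrophages, alveolar type 2, B and T cells, neutrophils, fibroblasts, erythroid and proliferating cells. Adjusted p-values without another tool named are from edgeR.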

Additional observations from a re-analysis of the deposited data

Results flagged for a closer look

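Among 210 groups of 4 values (35 members in 6 groups), 25 held a library far from the other 3, where chance flags about 1 in 20 groups, or 10.5. Of the 25 values, 11 were in young asbestos Siglec F-high replicate 3, 6 in old asbestos Siglec F-high replicate 3 and 8 in the other 22 libraries, and 13 were the lowest and 12 the highest of their group.

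In young asbestos Siglec F-high replicate 3, Pmvk (84.6 CPM), Fdft1 (59.8), Msmo1 (219), Ebp (113) and Tmem97 (45.3) lay above the other libraries of the group. Ggps1 (5.99), Lss (11.3), Lbr (2.90), Nsdhl (6.09), Srebf2 (42.3) and Fasn (81.8) lay below them. In old asbestos Siglec F-high replicate 3, Lbr (22.1 CPM), Stard4 (50.6) and Acaca (61.3) were high, and Fdps (19.6), Tmem97 (4.08) and Scd1 (54.7) were low.

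Among the other libraries, Mvk was 15.8 CPM in young Siglec F-low replicate 3 against 18.9 to 19.3 in the others, and Srebf2 was 201 in the same library against 174 to 177. Dhcr7 was 87.0 CPM in old naive replicate 4 against 62.5 to 65.0. Scap was 123 CPM in young asbestos Siglec F-high replicate 4, above its group. In young Siglec F-low replicate 2, Scd2 was 87.4 CPM against 108 to 111 and Fads1 was 21.9 against 27.8 to 28.3. Ggps1 was 13.1 CPM in old Siglec F-low replicate 3, and Acly was 349 CPM in old asbestos Siglec F-high replicate 2 against 368 to 371.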

How the results depend on the processing

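Counts of members called are given in the order of the report's 7 comparisons, beside 2, 6, 2, 0, 3, 3 and 6 by edgeR with 24 libraries. Without the 2 libraries that stand apart they were 6, 10, 11, 4, 12, 16 and 21, and with the replicate block besides 6, 11, 11, 5, 14, 19 and 23, which lost none of the calls. The replicate block with 24 libraries gave 2, 3, 2, 1, 3, 4 and 6. DESeq2 gave 2, 10, 4, 2, 5, 7 and 10, and limma voom with quality weights 6, 16, 13, 7, 15, 22 and 23. Over all genes edgeR called 0.780 to 4.99% with 24 and 4.12 to 12.0% with 22 libraries, DESeq2 1.84 to 10.6% and limma voom 5.10 to 17.1%, and the block with 22 libraries 5.32 to 17.9%. DESeq2's size factors in edgeR gave 2, 8, 2, 0, 3, 3 and 6, no filter 2, 3, 0, 0, 1, 3 and 4, and groups compared alone 3, 0, 12, 0, 0, 2 and 11. Leaving out 1 library gave 1 to 5, 2 to 8, 0 to 7, 0 to 5, 0 to 10, 3 to 12 and 3 to 18 with 24 libraries, and 3 to 6, 2 to 12, 6 to 12, 0 to 6, 5 to 17, 10 to 18 and 11 to 21 with 22. The interactions gave 0 members throughout. Of 22 pairs of a member and a comparison called with 24 libraries, 8 kept the call whichever library was left out, and of 80 called with 22 libraries, 32 did; no sign changed. Msmo1 in old against young asbestos Siglec F-high cells, at -0.41 with 24 libraries (adjusted p = 0.416), turned to 0.49 without the libraries that stand apart, with or without the replicate block, and to 0.50 with limma voom; the 24-library value includes 219 CPM in young replicate 3. With 22 libraries, the comparisons with the Siglec F-high sort after asbestos are limited to 3 against 4 libraries. Old against young cells of that sort are limited to 3 against 3. Fads2 was at most 4.24 CPM in any library. The causes of the other changes were not tested.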
